A study of Mus musculus with 24 samples.

Results

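The Siglec genes encode a family of cell-surface lectins that read sialic acid, the sugar that caps most glycan chains on mammalian cells. The 5 genes Siglec1, Siglece, Siglecf, Siglecg and Cd33 were picked out by gene symbol from the 53715 genes of the deposited table, and all 5 were found there in each of 24 RNA-sequencing libraries. Of these, 4 reached a normalised count of 50 in at least 1 library and entered the test across all genes, which covered 11230 genes. Siglecf did not, and its values are given without that test.

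Siglecs bind sialylated glycans on the same cell, on neighbouring cells or on microbes. Most CD33-related members carry inhibitory motifs in the cytoplasmic tail that recruit the phosphatases SHP-1 and SHP-2 (Ptpn6 and Ptpn11) and restrain myeloid activation, while a few members pair with the activating adaptor DAP12 (Tyrobp). Siglec1 is the adhesive exception: it is long, lacks inhibitory motifs, captures sialylated particles on macrophages and is known as an interferon-inducible gene of monocytes.

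The libraries came from monocyte subsets sorted from the peripheral blood (PB) of mice on a C57BL/6 background, 8 to 10 weeks old. Control (wt) mice were compared with N2ΔMy mice, in which Notch2 was deleted in myeloid cells by Cre expressed from the Lyz2 locus, and cells of both genotypes were sorted as GFP-positive from the Cx3cr1 reporter allele. Mice received 50 mg per day of Aldara cream with 5% imiquimod (IMQ), an agonist of the endosomal RNA sensor TLR7, or Sham cream (Vaseline) on the skin for 4 to 5 days, and cells were taken on day 5. The 6 groups of 4 libraries were Ly6Chi cells of each genotype after Sham, Ly6Chi cells of each genotype after IMQ, and Ly6Clo cells of each genotype after IMQ. No Ly6Clo group after Sham was present, so a response of Ly6Clo cells to IMQ could not be measured, and the study's methods call the controls untreated where the labels say Sham. The labels number the libraries 1 to 4 within a group without naming the animals, so p-values measure the spread between these libraries. Replicates 1 and 2 and replicates 3 and 4 carry library numbers of separate series and are called the first and second series below. Values are normalised counts (counts divided by a size factor per library and rounded), and a gene was called when its adjusted p was at most 0.05 and its log2 fold change was at least 0.6 in size.

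Notch2, the deleted gene, was lower in every N2ΔMy group. Its values ranged from 12656 to 20005 in the 12 wt libraries and from 7240 to 11518 in the 12 N2ΔMy libraries, which did not overlap. The summed level of 5 Ly6Chi monocyte markers was between 55152 and 81724 in all IMQ and Sham Ly6Chi libraries, and lay between 524 and 1892 in wt Ly6Clo libraries and between 7117 and 10009 in N2ΔMy Ly6Clo libraries. T and NK cell markers summed to at most 18 in any library. The 6 neutrophil markers summed to 1 to 59 in Ly6Chi libraries after Sham and to 919 to 5204 after IMQ, mostly as S100a8 and S100a9, while Ly6g was at 0 in every library after IMQ. Depth, inferred from the spacing of low values, ran from 9522376 to 19760126 reads per library, so that 1 read was worth 0.73 to 1.41 normalised counts.

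The CD33-related members lie together. Siglecf (chr7:43351341-43359531, plus strand), Siglecg (chr7:43408204-43418358, plus strand), Cd33 (chr7:43524216-43544428, minus strand) and Siglece (chr7:43651070-43660161, minus strand) stood within 309 kb of chromosome 7 in the GRCm38.p6 coordinates of the deposited table. Of 23 genes listed in that stretch, 7 passed the filter on low values and 4 of those were no Siglec gene. Siglec1 lies apart, at chr2:131069220-131086765 on the minus strand. No exon of a member overlapped an exon of another gene. Of all 75-base stretches in the members' transcripts (the length of the reads, in a later GENCODE release than the one the authors used) 0% of Siglece and Siglecf, 0.0505% of Cd33, 0.566% of Siglec1 and 2.79% of Siglecg also occurred in transcripts of other genes, so near-identical copies could move few of these counts.

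The sequences just before the starts of Cd33 and Siglece are shown because these neighbours had opposite patterns between the subsets. Each is the 250 bases upstream of the RefSeq start on GRCm38.p6, written 5′ to 3′ on the gene's strand, with capitals marking GAGGAA, a core that ETS factors such as the myeloid regulator PU.1 bind, or its reverse complement TTCCTC. The Cd33 window is chr7:43533172-43533421 and the Siglece window is chr7:43660162-43660411, both on the minus strand. The Siglece window adjoins the start of the gene in the deposited table, while the RefSeq start of Cd33 lies inside the longer Cd33 gene of that table, so its window is not the sequence before the outermost start listed there.
Cd33: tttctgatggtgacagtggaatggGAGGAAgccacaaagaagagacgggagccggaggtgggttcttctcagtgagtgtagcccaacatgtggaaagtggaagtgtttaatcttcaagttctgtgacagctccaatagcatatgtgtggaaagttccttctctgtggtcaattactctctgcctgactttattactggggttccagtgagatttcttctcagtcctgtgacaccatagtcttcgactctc
Siglece: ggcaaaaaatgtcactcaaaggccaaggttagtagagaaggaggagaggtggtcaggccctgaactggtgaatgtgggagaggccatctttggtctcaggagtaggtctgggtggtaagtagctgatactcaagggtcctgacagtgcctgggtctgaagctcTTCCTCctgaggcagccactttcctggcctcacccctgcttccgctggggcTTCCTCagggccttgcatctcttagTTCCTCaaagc
GAGGAA occurred on either strand 1 time in the Cd33 window, 3 times in that of Siglece, 1 time in that of Siglecf and 2 times in the first of the 2 windows of Siglecg, and in 23.3% of all 32851 windows of the same length. TGGGAA, the core that the Notch partner RBPJ binds, was in none of the members' windows and in 21.6% of all windows. The interferon response pattern, a pair of GAAA blocks with any 2 bases between them, was in none of them and in 2.98% of all windows, and TTGCNNAA, a C/EBP pattern, was in none of them and in 9.56% of all windows. These matches describe letters in a short window only. RefSeq windows were matched for 4 of the 5 members, with Siglec1 not among them.

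Siglec1, the macrophage adhesion receptor CD169, had the widest range of the family on the log2 scale, with group means that spanned 9.27. In wt Ly6Chi cells after Sham its normalised counts were 2652, 1833, 1740 and 2035, and in N2ΔMy Ly6Chi cells after Sham they were 2693, 2402, 1199 and 1561. After IMQ they were 118, 264, 259 and 107 in wt Ly6Chi cells and 85, 137, 351 and 126 in N2ΔMy Ly6Chi cells. All 8 libraries after IMQ therefore lay below all 8 after Sham, and the genotypes overlapped within each treatment. In Ly6Clo cells after IMQ the values were 3, 29, 0 and 0 in wt mice and 112, 144, 163 and 114 in N2ΔMy mice, which did not overlap. The order of the group levels was Sham Ly6Chi cells of both genotypes, then IMQ Ly6Chi cells of both genotypes together with N2ΔMy Ly6Clo cells, then wt Ly6Clo cells. The Sham groups of the genotypes (exact p = 0.743) and the N2ΔMy Ly6Chi and N2ΔMy Ly6Clo groups after IMQ (exact p = 0.8) did not differ beyond their spread, and the steps down to the middle set and to wt Ly6Clo cells had the smallest p that the exact permutation test of 4 against 4 libraries allows (two-sided, exact p = 0.0286).

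Cd33, the gene after which the CD33-related Siglecs are named, was high in Ly6Chi cells. Its values were 749, 748, 917 and 819 in wt Ly6Chi cells after Sham and lay between 643 and 981 in those of N2ΔMy mice. After IMQ they were 1176, 825, 760 and 1383 in wt Ly6Chi cells and 1415, 1235, 851 and 1232 in N2ΔMy Ly6Chi cells. In Ly6Clo cells they dropped to 46, 31, 77 and 50 in wt mice and to 191, 149, 185 and 149 in N2ΔMy mice. All 16 Ly6Chi libraries were above all 8 Ly6Clo libraries, and the 2 Ly6Clo groups did not overlap. The 4 Ly6Chi groups stood next to each other in the order of levels with exact p values of 0.286 to 0.771 between neighbours, and the steps to N2ΔMy Ly6Clo cells and from there to wt Ly6Clo cells each had an exact p of 0.0286.

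Siglece, an inhibitory receptor of mouse neutrophils, monocytes and macrophages, had the reverse pattern. It was at 196, 144, 172 and 216 in wt and at 204, 264, 229 and 193 in N2ΔMy Ly6Chi cells after Sham. After IMQ it was at 482, 382, 222 and 451 in wt and at 441, 336, 353 and 376 in N2ΔMy Ly6Chi cells. In Ly6Clo cells it reached 3366, 2951, 1467 and 2314 in wt and 1894, 2127, 1323 and 1268 in N2ΔMy mice. Every Ly6Clo library was above every Ly6Chi library, and the 2 Ly6Clo groups overlapped (exact p = 0.114). In the order of levels only the step from N2ΔMy Ly6Clo cells to N2ΔMy Ly6Chi cells after IMQ passed without overlap (exact p = 0.0286), and the other 4 steps had exact p values of 0.0857 to 1.

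Siglecg and Siglecf stayed low. Siglecg, an inhibitory receptor best known on B cells, ranged from 16 to 52 in the 16 Ly6Chi libraries. In Ly6Clo cells it was at 16, 7, 68 and 10 in wt and at 13, 26, 206 and 61 in N2ΔMy mice, so that 1 library held most of the N2ΔMy sum. Siglecf, the receptor that marks eosinophils and alveolar macrophages, was at 0 in 7 of 24 libraries and reached at most 18, with group means of 2.5 to 8.75 normalised counts and overlap between all groups. The 5 eosinophil markers were also near the floor, summing to at most 46 in any library, and Epx and Prg2 were at 0 in all 4 libraries of 5 of the 6 groups. In replicate 3 of wt Ly6Chi cells after Sham, the one library of its group with Siglecf above 0, the eosinophil receptor gene Ccr3 was at 13 against 0 to 1 in the others. In replicate 3 of N2ΔMy Ly6Chi cells after Sham, where Siglecf was at 18, Ccr3 was at 37 and Il5ra at 9, while in replicate 1, where Siglecf was at 11, both were at 0. In Ly6Clo libraries Ccr3 was at 5 to 30, with 14 and 15 in wt replicates 1 and 2, where Siglecf was at 0. The part of these markers in the Siglecf values was not tested.

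Levels of different genes were set side by side per kilobase of annotated exon, a scale that depends on the annotation. The merged exon length was 1849 bases for Siglece and 7771 for Cd33, whose annotation extends beyond its RefSeq start. Siglece in wt Ly6Clo cells was the highest value of the family at 1365 ± 447 (SD, n = 4) normalised counts per kb. Siglec1 was the highest of the family in wt Ly6Chi cells after Sham at 289 ± 57.4 (SD, n = 4) per kb, beside Cd33 at 104 ± 10.3 (SD, n = 4) and Siglece at 98.4 ± 16.8 (SD, n = 4). After IMQ the order in wt Ly6Chi cells was Siglece at 208 ± 62.7 (SD, n = 4), Cd33 at 133 ± 37.9 (SD, n = 4) and Siglec1 at 26.2 ± 12.1 (SD, n = 4) per kb. In counts not divided by length Cd33 (mean 1036) stood above Siglece (mean 384) in that group.

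**Figure D1:**
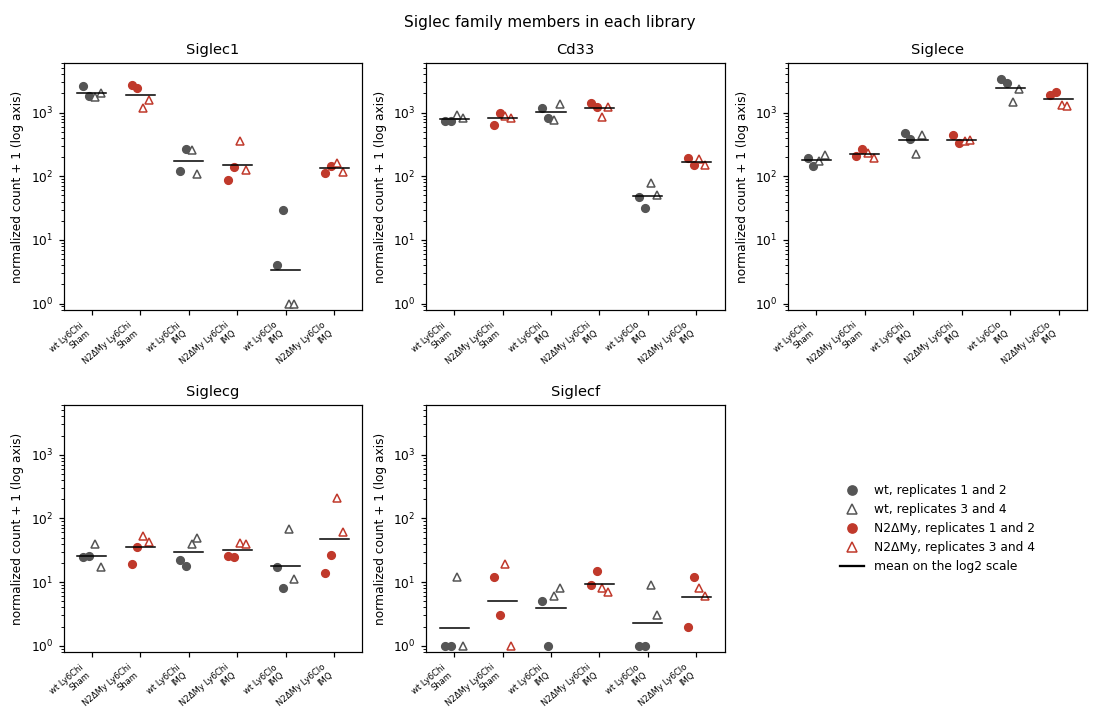
Normalised count plus 1 (log axis) of each Siglec family member in every library, by group, with wt in grey and N2ΔMy in red, circles for replicates 1 and 2 and open triangles for replicates 3 and 4. Bars mark the mean on the log2 scale. Siglec1 falls from 1199 or more after Sham to 351 or less after IMQ, Cd33 and Siglece separate the subsets in opposite directions, and in Ly6Clo cells the N2ΔMy libraries sit above the wt libraries for Siglec1 and Cd33.

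The first comparison asked how Ly6Chi cells respond to systemic TLR7 stimulation. In wt mice Siglec1 was 11.8-fold lower after IMQ (log2 fold change -3.56, SE 0.29, limma adjusted p = 7.23e-05) and Siglece was 2.04-fold higher (1.03, SE 0.24, limma adjusted p = 0.0145). These were 2 of the 4 members tested, beside 9.49% of all genes called, and groups did not overlap for 2 of 5 members beside 21.5% of all genes tested. Cd33 had a log2 fold change of 0.32 (95% interval -0.08 to 0.71) and Siglecg one of 0.21 (95% interval -0.71 to 1.13), neither of which was called. Siglec1 fell in each series, with log2 differences of -3.63 and -3.49. The rise of Siglece was 1.35 in the first series and 0.71 in the second, where it was no longer called (limma adjusted p = 0.246). It was also not called without the filter on low values (limma adjusted p = 0.109).

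The same comparison in N2ΔMy mice called the same 2 members, beside 8.7% of all genes called and 19.5% of all genes whose groups did not overlap. Siglec1 was 12.3-fold lower (log2 fold change -3.62, SE 0.40, limma adjusted p = 0.000354) and Siglece was 1.69-fold higher (0.76, SE 0.14, limma adjusted p = 0.00618). Cd33 had a log2 fold change of 0.50 (95% interval 0.11 to 0.88, limma adjusted p = 0.089) and was not called, though it was called without replicate 3 of the IMQ group (0.65, limma adjusted p = 0.02). Siglec1 fell by 4.55 on the log2 scale in the first series and by 2.70 in the second. Siglece had log2 differences of 0.73 and 0.79 in the series, and with the 2 libraries per group of the first series alone it was not called (limma adjusted p = 0.084).

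The test of the difference between genotypes in this response called none of the 4 members and 0% of all genes (limma, 4 members with unadjusted p of 0.366 to 0.917). For Siglec1 the difference of the log2 fold changes was -0.06 (95% interval -1.22 to 1.11) and for Siglece -0.27 (95% interval -0.89 to 0.35). At an unadjusted p under 0.05 there were 177 genes, with no member among them, and without the filter on low values 1 gene of the whole table was called by limma.

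Siglec1 is known to belong to the interferon-inducible genes. Of 12 such genes 11 fell and none rose after IMQ in wt Ly6Chi cells, beside 9.49% of all genes called. Their median log2 fold change was -2.23, beside 0.01 over all genes tested. In N2ΔMy Ly6Chi cells 11 of the 12 also fell, with a median of -2.34, beside 8.7% of all genes called. The largest falls in wt cells were in Ifit3 (-3.83, SE 0.41), an antiviral effector, the chemokine gene Cxcl10 (-3.61, SE 0.42), Rsad2 (-3.43, SE 0.47), which encodes viperin, and Ifit2 (-3.01, SE 0.43). Siglec1, at -3.56, lay within the range of these genes. None of the 12 was called between N2ΔMy and wt Ly6Clo cells, beside 4.78% of all genes called, and their median log2 fold change there was -0.04. Siglec1 was at -5.70 in wt Ly6Clo against Ly6Chi cells. There Cxcl10 (-2.92), Usp18 (-1.99), Isg15 (-1.95) and Ifi44 (-1.71) were among the genes called lower, while Ifit3 (0.08) and Rsad2 (0.48) lay above 0.

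**Figure D2:**
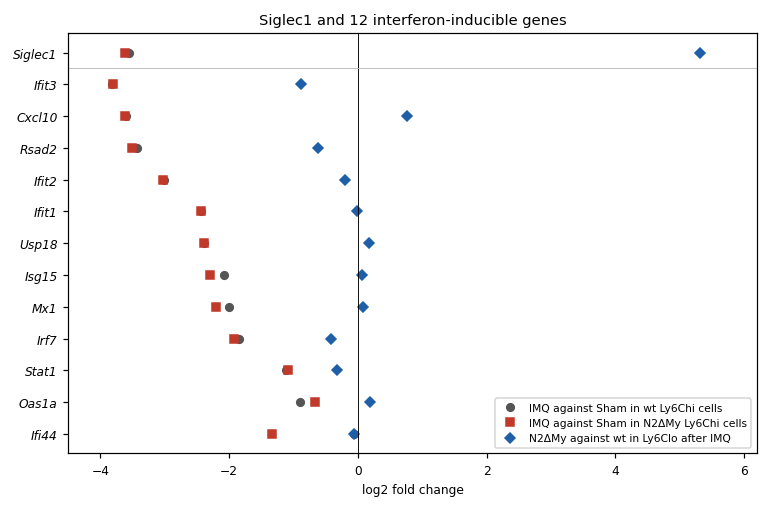
Fitted log2 fold changes of Siglec1 (top row) and 12 interferon-inducible genes in 3 comparisons: IMQ against Sham in wt (grey circles) and N2ΔMy (red squares) Ly6Chi cells, and N2ΔMy against wt Ly6Clo cells after IMQ (blue diamonds). With IMQ Siglec1 falls as these genes do, at -3.56 and -3.62. Between genotypes in Ly6Clo cells Siglec1 is at 5.32 and the 12 genes lie between -0.88 and 0.77.

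The second comparison set Ly6Clo against Ly6Chi cells of the same genotype after IMQ, with the same Ly6Chi libraries that entered the comparison with Sham. In wt mice 3 of the 4 members tested were called, beside 24.6% of all genes, and groups did not overlap for 3 of 5 members beside 35.4% of all genes tested. Siglec1 was lower in Ly6Clo cells (log2 fold change -5.70, SE 0.96, limma adjusted p = 0.00087), with group means of 8 and 187. Cd33 was 20.3-fold lower (-4.35, SE 0.28, limma adjusted p = 1.4e-06). Siglece was 6.52-fold higher (2.71, SE 0.28, limma adjusted p = 3.57e-05). The 3 calls held within each series, and the fitted size for Siglec1, which is at 0 in 2 wt Ly6Clo libraries, ran from -7.46 to -3.60 over the alternatives.

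In N2ΔMy mice 2 of the 4 members tested were called, beside 17.4% of all genes, and groups did not overlap for 2 of 5 members beside 27.8% of all genes tested. Cd33 was 6.92-fold lower in Ly6Clo cells (log2 fold change -2.79, SE 0.17, limma adjusted p = 1.1e-06) and Siglece was 4.30-fold higher (2.10, SE 0.17, limma adjusted p = 8.89e-06). Siglec1 had a log2 fold change of -0.19 (95% interval -0.99 to 0.60) and was not called. Its Ly6Clo mean of 133 was 76.3% of its Ly6Chi mean in N2ΔMy mice, against 4.28% in wt mice. Both shares leaned on 1 library, being 115% without replicate 3 of the N2ΔMy Ly6Chi group and 0.535% without replicate 2 of the wt Ly6Clo group.

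The comparison of genotypes in Ly6Clo cells after IMQ asked what myeloid loss of Notch2 changes in that subset. Siglec1 was higher in N2ΔMy cells (log2 fold change 5.32, SE 0.94, limma adjusted p = 0.00735), with means of 133 ± 24.7 and 8 ± 14.1 (SD, n = 4 each). Cd33 was 3.40-fold higher (1.77, SE 0.28, limma adjusted p = 0.00373), with means of 169 ± 22.7 and 51 ± 19.2 (SD, n = 4 each). These were 2 of the 4 members tested, both higher, beside 4.78% of all genes called in either direction and 3.12% called higher. Groups did not overlap for 2 of 5 members, beside 12.8% of all genes tested. When the model paired libraries by replicate number (a replicate block), both members were still called and the count over all genes moved from 537 to 939.

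For Siglec1 the fitted size rests on wt values at or near 0. In the second series both wt libraries were at 0 and the N2ΔMy mean was 138.5, at least 39.6-fold above the value that 3 reads would give per library. In the first series the means were 128 and 16, and with those 2 libraries per group alone the adjusted p was 0.0671 (limma). Without the filter on low values, over 28578 genes, it was 0.114. Cd33 was higher by 2.13 in the first series and by 1.41 in the second on the log2 scale, and with the second series alone it was not called (limma adjusted p = 0.0946).

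Siglece had a log2 fold change of -0.58 between the genotypes in Ly6Clo cells (95% interval -1.14 to -0.02, limma adjusted p = 0.242) and was not called. It was called, at -0.82, without replicate 3 of the wt group and, at -0.65, in the first series alone. Siglecg had a log2 fold change of 1.39 (95% interval -0.52 to 3.30) and was not called. Siglecf values in the 2 groups overlapped (exact p = 0.229).

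In Ly6Chi cells the genotypes were compared after IMQ and after Sham, and none of the 4 members tested was called in either comparison, beside 0.0267% and 0.0178% of all genes called and 3.84% and 3.15% of all genes whose groups did not overlap. The unadjusted limma p values of the members ran from 0.345 to 0.921 after IMQ and from 0.116 to 0.8 after Sham. For Siglec1 the 95% intervals of the log2 difference were -1.19 to 0.82 after IMQ and -0.67 to 0.41 after Sham, and for Cd33 they were -0.26 to 0.69 and -0.26 to 0.33. With the replicate block the count over all genes after IMQ moved from 3 to 54, with no member among them. At an unadjusted limma p under 0.05 there were 679 genes after IMQ and 585 after Sham, with no member among them.

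The test of whether the genotype difference itself differed between subsets after IMQ called 2 of the 4 members, beside 1.03% of all genes. For Siglec1 the difference of log2 fold changes was 5.51 (SE 1.12, limma adjusted p = 0.0207) and for Cd33 it was 1.56 (SE 0.34, limma adjusted p = 0.0354). The call of Cd33 was lost in 11 of 16 fits that left out 1 library, with log2 differences of 1.35 to 1.78, and in the second series alone (limma adjusted p = 0.42). The call of Siglec1 was lost without replicate 2 of the wt Ly6Chi IMQ group (limma adjusted p = 0.0538), in the first series alone (0.0959) and with a pseudocount of 0.1 (0.0747). Without the filter on low values neither was called (limma adjusted p = 0.133 for Siglec1 and 0.164 for Cd33), and without the variance trend Cd33 was not (0.068). With the replicate block both members were called and the count over all genes moved from 116 to 271.

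**Figure D3:**
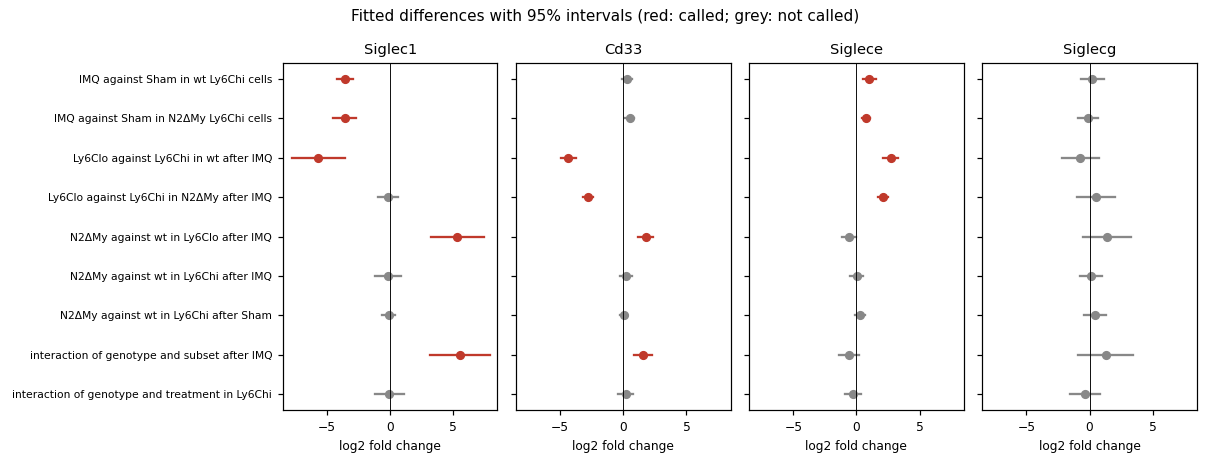
Fitted log2 fold changes (points) with 95% intervals (lines) of the 4 members tested in the 9 comparisons, red where called and grey where not. Siglec1 is called in both IMQ comparisons and, at 5.32, between genotypes in Ly6Clo cells, Cd33 and Siglece are called between subsets in both genotypes, and no interval of Siglecg excludes 0.

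Markers of other monocyte and macrophage states moved with the Siglec1 and Cd33 differences in N2ΔMy Ly6Clo cells. The 5 Ly6Chi markers summed to 7117 to 10009 in N2ΔMy and to 524 to 1892 in wt Ly6Clo libraries, and 3 of the 5 were called higher (Vcan at 3.75, F13a1 at 3.56 and Ccr2 at 3.44 on the log2 scale). The summed Ly6Chi markers were at 11.9% of their Ly6Chi level in N2ΔMy Ly6Clo cells, Cd33 was at 14.2% and Siglec1 at 76.3%. In wt Ly6Clo cells these shares were 1.66%, 4.92% and 4.28%, the last of which was 0.535% without replicate 2. The 9 tissue macrophage markers summed to 1733 to 2528 in N2ΔMy Ly6Clo libraries and to 116 to 222 in wt Ly6Clo libraries, and all 6 that could be tested were called higher, among them C1qa (4.78), Cd5l (4.50), Mertk (4.42) and C1qc (4.18). Over all genes tested, 4.78% were called in this comparison, with 3.12% called higher. Marco, too low to test, was at 13, 16, 19 and 13 in N2ΔMy and at 25, 20, 23 and 9 in wt Ly6Clo libraries. Vsig4 and Timd4 were at 0 in all 4 N2ΔMy Ly6Clo libraries. In Sham Ly6Chi libraries, where Siglec1 was highest, the same 9 markers summed to 491 to 1109, with Cd5l, Vsig4, Timd4 and Marco at 0. Mrc1 alone gave 442 to 1070 of those sums, and C1qa, C1qb, C1qc and Mertk were between 0 and 25 in each Sham library. The 6 Ly6Clo monocyte markers moved the other way, summing to 52427 to 71546 in N2ΔMy and to 99611 to 120695 in wt Ly6Clo libraries, which did not overlap. Of these 6, Ace (-1.19), Nr4a1 (-0.86) and Spn (-0.63) were called lower in N2ΔMy cells and none higher. The part of these markers in the Siglec1 and Cd33 differences was not tested, and in sorted bulk cells a larger share of cells of one kind and more RNA per cell cannot be told apart.

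**Figure D4:**
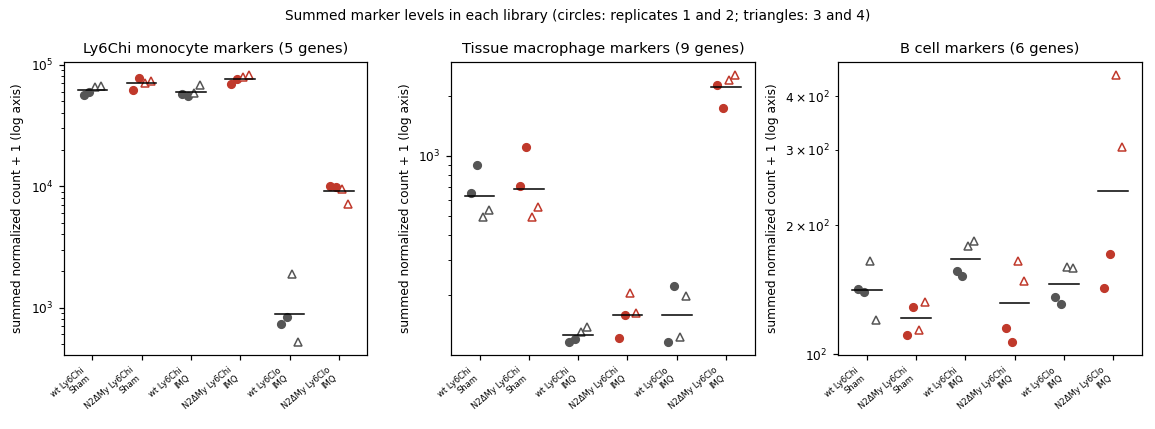
Summed normalised count plus 1 (log axis) of 3 marker lists in every library, by group, with wt in grey and N2ΔMy in red, circles for replicates 1 and 2 and open triangles for replicates 3 and 4 and bars at the mean on the log2 scale. In N2ΔMy Ly6Clo libraries the Ly6Chi markers sum to 7117 or more against at most 1892 in wt, the macrophage markers to 1733 or more against at most 222, and the B cell markers reach 447 in replicate 3.

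B cell markers were high in 2 of the 3 Ly6Clo libraries with the most Siglecg. The 6 B cell markers, which include the Siglec family gene Cd22, summed to 106 to 183 in all libraries other than those of N2ΔMy Ly6Clo cells. In N2ΔMy Ly6Clo replicates 1 to 4 they summed to 142, 170, 447 and 303, while Siglecg was at 13, 26, 206 and 61. Among these 4 libraries the highest 2 values of each were in the second series, and Cd22 alone gave 310 of the 447 in replicate 3. In wt Ly6Clo replicate 3, where Siglecg was at 68, the B cell markers summed to 159, within the range of the other groups. Siglech, a marker of plasmacytoid dendritic cells, was at 46 in that library, at 64 and 39 in N2ΔMy Ly6Clo replicates 3 and 4, and at 2 to 9 in the other 5 Ly6Clo libraries. Of the other genes of that 5-gene marker list, Ccr9, Klk1 and Cox6a2 were at 0 in wt Ly6Clo replicate 3. They were at 5, 4 and 11 in N2ΔMy Ly6Clo replicate 3 and at 5, 0 and 4 in replicate 4. In the other 5 Ly6Clo libraries Ccr9 was at 0 to 3, Klk1 at 0 and Cox6a2 at 0 to 6. Tcf4, which gave most of each list sum, was at 1287 in wt replicate 3, at 1181 and 1079 in N2ΔMy replicates 3 and 4, and at 1108 to 1530 in the other 5. The list summed to 1333 in that wt library, to 1265 and 1127 in those N2ΔMy libraries, and to 1120 to 1538 in the other 5. The part of these markers in the Siglecg values was not tested.

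Of the 4 further Siglec family genes, which did not belong to the 5 selected, 2 could be tested. Cd22, the B cell Siglec, was between 15 and 310 and was called higher in N2ΔMy Ly6Clo than in N2ΔMy Ly6Chi cells after IMQ (log2 fold change 1.59, SE 0.45, limma adjusted p = 0.025). Siglech, the receptor of plasmacytoid dendritic cells, was between 0 and 64 and was called in the same comparison (3.17, SE 1.00, limma adjusted p = 0.0393). Neither was called in the other comparisons. Mag, the glial Siglec, was at most 18, and Siglec15 was at 0 in all 24 libraries.

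The counts of called genes in the lists that follow stand beside 9.49% of all genes called with IMQ in wt Ly6Chi cells, 24.6% between the subsets in wt mice and 4.78% between the genotypes in Ly6Clo cells. Of 12 adaptors, kinases and phosphatases that carry Siglec signals, 1 rose with IMQ in wt Ly6Chi cells, namely Socs3 (log2 fold change 1.53, SE 0.16), a feedback inhibitor of cytokine signalling. In wt Ly6Clo against Ly6Chi cells 6 of the 12 rose and none fell, among them Socs3 (1.14, SE 0.14), the phosphatase gene Ptpn11 (1.05, SE 0.09) and the receptor adaptor gene Fcer1g (0.85, SE 0.17), with a median of 0.61 beside -0.01 over all genes. Between the genotypes in Ly6Clo cells 1 fell, again Socs3 (-0.80, SE 0.09), and none rose.

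The enzymes that make and attach sialic acid, the ligand of the family, were counted against the same shares of all genes. Of 20 sialyltransferases 12 could be tested, and with IMQ in wt Ly6Chi cells 2 rose and 3 fell, including falls of St8sia6 (-3.09, SE 0.45), St3gal6 (-2.57, SE 0.45) and St8sia1 (-2.21, SE 0.49) and a rise of St3gal5 (1.15, SE 0.23), which makes the ganglioside GM3. In wt Ly6Clo against Ly6Chi cells 3 rose and 4 fell, led by St3gal6 (4.26, SE 0.35), St3gal5 (1.47, SE 0.14) and St6galnac4 (1.09, SE 0.18) among those that rose and with a fall of St6gal1 (-1.19, SE 0.22). St6gal1, which caps N-linked glycans, had the largest genotype difference of the 3 sialyltransferases called in Ly6Clo cells, at 786 in N2ΔMy and 299 in wt mice on average (1.42, SE 0.25, limma adjusted p = 0.00766). There St3gal5 was also higher in N2ΔMy cells (0.73, SE 0.11) and St6galnac4 lower (-0.73, SE 0.18), so that 2 rose and 1 fell.

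Of 8 genes of sialic acid synthesis and activation 6 could be tested. Gne, the key enzyme at the start of the pathway, rose in wt Ly6Clo against Ly6Chi cells (1.16, SE 0.14), while Nans (-0.71, SE 0.12), which encodes the sialic acid synthase, and Renbp (-0.87, SE 0.17) fell. Between genotypes in Ly6Clo cells Gne was lower (-0.72, SE 0.14) and Nans higher (0.65, SE 0.14) in N2ΔMy cells. None of the 6 was called with IMQ in wt Ly6Chi cells. The 3 testable genes of 6 sialidases and sialate O-acetyl enzymes were called in none of these 3 comparisons.

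Of 10 sialylated ligands and partner receptors 9 could be tested. With IMQ in wt Ly6Chi cells Cd24a, a ligand of Siglec-G, rose (2.89, SE 0.38), as did Spn (0.78, SE 0.14), the sialomucin CD43 and a ligand of Siglec1, while the lectin genes Mrc1 (-3.34, SE 0.30) and Clec10a (-1.02, SE 0.15) fell. In wt Ly6Clo against Ly6Chi cells Spn (1.95, SE 0.15) and the integrin gene Itgb2 (1.38, SE 0.14) rose, and Clec10a (-3.79, SE 0.45) and Mrc1 (-2.80, SE 0.49) fell. Ly6Chi cells were sorted as CD43-negative, so the gate bears on the direction of Spn between the subsets. Between genotypes in Ly6Clo cells Clec10a (3.33, SE 0.50) and Mrc1 (3.32, SE 0.49) were higher and Spn (-0.63, SE 0.09) was lower in N2ΔMy cells.

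The genes whose 6 group levels, each centred on its own mean, lay nearest to those of a member were found among tested genes with a mean of at least 50, by the root mean square difference over the 6 groups on the log2 scale. Nearest to Siglec1 were a gene known only by a clone name (0.87), Adam19 (1.00), a membrane metalloprotease gene, and the macrophage lectin gene Mrc1 (1.06), all at some distance from it. Mrc1 had means of 608 and 674 after Sham, 60.5 and 66.5 after IMQ in Ly6Chi cells, 8.25 in wt Ly6Clo cells and 89.3 in N2ΔMy Ly6Clo cells. Nearest to Siglece were Fam135a (0.14), Cd300ld (0.20), a myeloid receptor gene, and Phtf2 (0.21). Nearest to Cd33 were Padi4 (0.21), which encodes a peptidylarginine deiminase, the coagulation factor gene F5 (0.22) and RP24-80F7.5 (0.28). Nearest to Siglecg were Crip2 (0.15), Fam20c (0.17) and Slc35f5 (0.17), around a member whose group levels spanned 1.39 on the log2 scale and rested on 1 library. Siglecf was too low for this search.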

How the data were processed

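RNA-sequencing values of 24 libraries (6 groups of 4) were analysed. The authors made libraries from total RNA of sorted cells with a stranded total RNA kit, read 75-base single ends, and per the submitters' processing notes used Trim Galore 0.4.4, STAR 2.5.3a and DESeq2 on GRCm38.p6, with GENCODE M17 annotation per the study's methods. The deposited values are counts normalised with DESeq2 by the authors and rounded to whole numbers, so they were treated as a score and not as raw counts. Library sums ran from 13273508 to 14651770. The deposited table also holds the authors' fold changes, errors, test statistics and p-values of their comparisons, which were not used, and a pooled mean.

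Genes reaching 50 in 1 or more libraries were tested with limma 3.58.1 (R 4.3.3, eBayes with trend) on log2(value + 1), on which scale fold changes understate those of low genes, with Benjamini-Hochberg adjustment over 11230 genes and only the groups compared in each fit. Members also had a two-sided exact permutation test over 70 splits of 4 against 4 libraries (smallest p 0.0286). The fit was tested on simulated data. Depth was inferred from the spacing of low values, with an error of at most 2.04% on 6 simulated libraries. Promoter windows came from RefSeq. Per-kb values were divided by merged exon length. Same-numbered libraries deviated together (correlations of 0.16 to 0.619 over the comparisons), so the replicate number was fitted as a block in an alternative, the pairing coming from the labels' replicate numbers. Other alternatives changed the pseudocount, filter, scaling, floor on low values, variance trend, samples in the fit or library series, or left out each library in turn.

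The members and gene lists were chosen with earlier results of these data known. Named genes were the members, Notch2, up to 4 called genes per list with the largest change in each of 3 comparisons (IMQ against Sham and Ly6Clo against Ly6Chi in wt, N2ΔMy against wt in Ly6Clo), and the 3 genes nearest in pattern to each member with a mean of at least 20 and a span of at least 1. Cd22, Siglech, Mag, Siglec15, and marker genes named as at 0 were named after their values were seen. Values of some genes of the lists are not reported here.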

Additional observations from a re-analysis of the deposited data

Results flagged for a closer look

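Among 36 groups of 4 libraries (5 members and Notch2 in 6 groups), 3 had 1 library far from the other 3, by Dixon's criterion at the 95% level, which flags about 1 in 20 groups by chance. Siglec1 was at 29 in replicate 2 of wt Ly6Clo cells after IMQ and at 3, 0 and 0 in the others. Siglecg was at 68 in replicate 3 of the same group and at 7 to 16 in the others. Siglecf was at 11 in replicate 3 of wt Ly6Chi cells after Sham and at 0 in the others, and the eosinophil gene Ccr3 was at 13 in that library. Ccr3 was also at 14 and 15 in wt Ly6Clo replicates 1 and 2, where Siglecf was at 0. The genotype difference after IMQ differed between Ly6Clo and Ly6Chi cells for Siglec1, by 5.51 on the log2 scale, and for Cd33, by 1.56, by the interaction test of the report.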

How the results depend on the processing

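The 13 calls of members kept their direction under every alternative run. The count of members called moved from 2 to 1 in wt Ly6Chi cells with IMQ, without the filter on low values and with replicates 3 and 4 only, and in N2ΔMy Ly6Chi cells with IMQ, with replicates 1 and 2 only. Between genotypes in Ly6Clo cells it moved from 2 to 1 without the filter and with replicates 3 and 4 only. In the first series alone Siglec1 was lost there while Siglece was gained, which left the count at 2. Siglece was also gained there without wt Ly6Clo replicate 3 (limma adjusted p = 0.0454). With IMQ in N2ΔMy Ly6Chi cells Cd33 was gained without replicate 3 of the IMQ group (limma adjusted p = 0.02). For the interaction of genotype and subset it moved from 2 to 0 without the filter and to 1 with a pseudocount of 0.1, without the trend, with replicates 1 and 2 only and with replicates 3 and 4 only, and leaving out each library gave 1 to 2. Without the filter 28578 genes were tested in place of 11230. The cause was not tested for the others. With the paired replicate block the members called were 2, 2, 3, 2, 2, 0, 0, 2 and 0 in the 9 comparisons, as without it, and no call of a member changed. Counts over all genes moved by over 1.5 times with replicates 3 and 4 only (1066 to 592 in wt with IMQ, 537 to 180 between genotypes in Ly6Clo cells, 116 to 18 for the interaction), without the filter (537 to 215), with the library series as covariate (537 to 830, 116 to 210) and, for the interaction, without wt Ly6Chi IMQ replicate 2 (116 to 75). At this depth 3 reads were worth up to 4.23 normalised counts, which limits Siglecf in all groups and Siglec1 in wt Ly6Clo cells. The shares of the Ly6Chi level without single libraries were added after the data were seen.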
